A study of Mus musculus with 4 samples.

Results

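The genes examined here were 6 adrenergic receptors, the G protein-coupled receptors for noradrenaline and adrenaline. They were taken by symbol from a fixed list (Adra1a, Adra1b, Adra1d, Adra2a, Adra2c and Adrb1) and matched to their Ensembl identifiers. All 6 were present among the 26328 genes listed in at least 1 of the deposited files, and all 6 were among the 18436 genes tested. RNA-seq was performed on poly(A) RNA from the hippocampus of male C57BL/6 mice, with 2 WT and 2 Lsd1 KI samples. The KI mice carry LSD1, a histone demethylase encoded by Kdm1a, with a serine that PKCα phosphorylates replaced by alanine. The knock-in is in the germ line, and every cell of the tissue therefore carries it. The labels describe littermates of 8 to 15 weeks for the behavioural tests, and give no age for the sequenced mice. They do not say whether the 4 samples came from 1 mouse each, so the p-values measure the spread between these samples.

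Noradrenaline reaches the hippocampus in the axons of locus coeruleus neurons, and modulates excitability, synaptic plasticity and memory there. The alpha1 receptors couple to Gq and phospholipase C, the alpha2 receptors couple to Gi and lower cAMP, and the beta receptors couple to Gs and raise cAMP. Alpha2 receptors also act as autoreceptors that hold back noradrenaline release, while Adrb1 is a main beta receptor of forebrain neurons.

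Expression was given as RPKM, reads scaled to the exon length of the gene and to the mapped reads of the sample. RPKM is corrected for gene length, so levels of different genes can be set beside each other. Whole-read steps in the values gave 8827967 mapped reads in WT replicate 2 and between 13414957 and 14949756 in the other 3 samples. The WT replicate 2 library was thus the shallowest. Kdm1a was at 11.6 and 11.2 RPKM in the WT samples and at 10.97 and 11.2 RPKM in the KI samples. A change of 1 codon leaves no trace in these gene-level values, and the KI labels could not be checked from them. The 8 hippocampal neuron markers, among them Prox1 and Wfs1, summed to between 268 and 274 RPKM in every sample. Of these 8, 0 were above and 2 below in both KI samples, against 24.0% and 18.1% of all genes tested. Choroid plexus markers set KI replicate 1 apart, with 60.6 RPKM summed over 5 genes against 14.1 to 19.7 RPKM in the other samples.

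One receptor dominated the family (the plot of receptor levels). Adra1d, an alpha1 receptor, had 25.0 and 25.8 RPKM in the WT samples, then 27.5 RPKM in the first KI sample and 21.7 RPKM in the second. Its mean over the 4 samples was 4.35 times that of Adra2c, the next receptor, and their ranges lay apart. Adra1d made up between 57.5% and 64.5% of the summed RPKM of the 6 receptors. Its mean level exceeded that of 85.8% of the genes tested. Adra2c, Adrb1 and Adra2a followed at means of 5.75, 4.82 and 3.07 RPKM. The ranges of Adra2c and Adrb1 overlapped, while Adra2a lay below every value of Adrb1. Adra1b, at a mean of 0.768 RPKM, and Adra1a, at 0.614 RPKM, came last, and their ranges overlapped. The order of the 6 genes was the same in all 4 samples, also for the 2 pairs whose ranges overlapped. For Adra1b and Adra1a it rests on the exon lengths behind RPKM, 3382 and 8144 bases, which are the same in every sample. Adra1a had the more reads, 51 to 68 against 26 to 45.

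**Figure D1:**
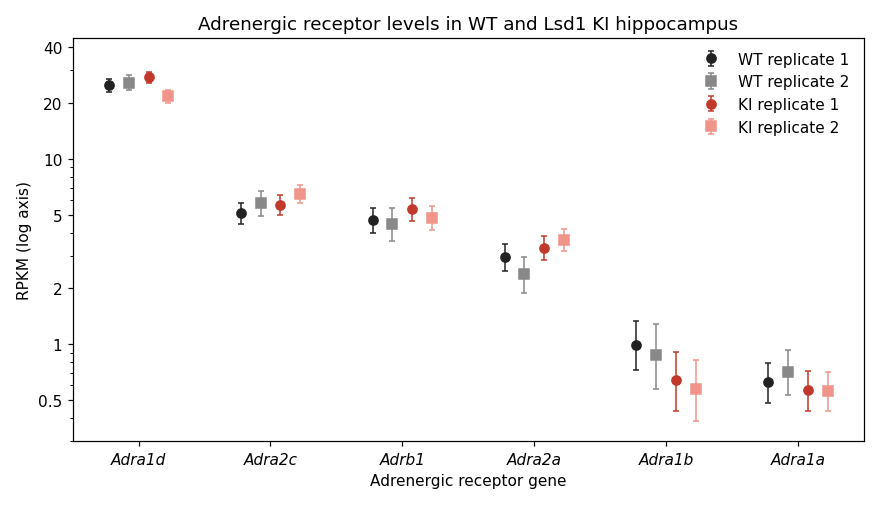
RPKM of each adrenergic receptor (log axis) in the 2 WT (black, grey) and 2 KI samples (red, pink), in order of mean level. Bars are exact 95% Poisson intervals of the reads, which cover counting error only. Adra1d sits between 21.7 and 27.5 RPKM, above every other receptor, and Adra1a and Adra1b sit below 1 RPKM.

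By coupling class, the 3 Gq-coupled receptors summed to 26.6 and 27.4 RPKM in WT and to 28.7 and 22.9 RPKM in KI (the bars of summed RPKM). The groups overlapped. The 2 Gi-coupled receptors summed to 8.03 and 8.16 RPKM in WT and to 8.95 and 10.2 RPKM in KI, so that both KI samples lay above both WT samples. Adrb1, the single Gs-coupled receptor here, contributed between 11.1% and 12.7% of the family total. That total ran from 37.8 RPKM in KI replicate 2 to 43.0 RPKM in KI replicate 1, and both WT samples lay between. In KI replicate 2 the alpha2 share was 26.8%, against 20.4% to 20.8% in the other samples. No test was made of these sums. In bulk tissue, fewer cells of a type and less RNA per cell cannot be told apart.

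**Figure D2:**
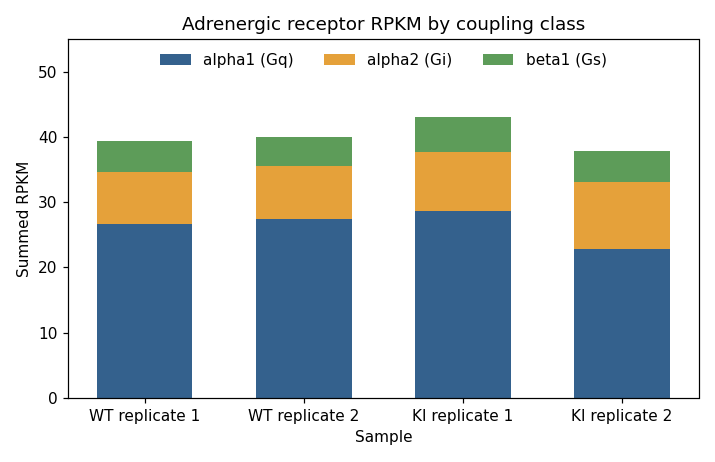
Summed RPKM of the alpha1, alpha2 and beta1 receptors in each sample, stacked from 0. The alpha1 block is 26.6 and 27.4 RPKM in WT and 28.7 and 22.9 RPKM in KI, and the alpha2 block is largest in KI replicate 2 at 10.2 RPKM.

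To compare the genotypes, limma was fitted to log2(RPKM + 1) of all 18436 genes. A gene was called where its adjusted p (Benjamini-Hochberg) was under 0.1 and its change at least 1.2-fold. By this rule 0 of the 6 receptors were called, and 0 of the 18436 genes were called (0.0%). At an unadjusted limma p under 0.05 there were 0 receptors and 1774 genes (9.62%). The smallest adjusted p from limma was 0.521 among the receptors and 0.197 among all genes. The KI samples were the 2 highest of the 4 for Adra2a and Adrb1, and the 2 lowest for Adra1a and Adra1b. Over all genes tested these shares were 24.0% and 18.1%. The log2 fold changes of the receptors had a median of 0.04, against 0.01 for all genes, and 3 of the 6 were above 0. With 2 samples against 2, an exact permutation test cannot give a p under 0.333.

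Because whole reads could be worked out from the RPKM values, limma's voom was also run on those reads, a choice made after the data were seen. It called 277 genes (1.5%), 210 higher and 67 lower in KI, and 0 receptors. At an unadjusted voom p under 0.05 there were 2 receptors, Adra2a and Adra1b, and 2162 genes (11.7%).

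Adra2a encodes an alpha2 receptor found on noradrenergic terminals and on neurons that receive them. It was at 2.94 and 2.38 RPKM in WT and at 3.29 and 3.66 RPKM in KI, on 150, 80, 180 and 208 reads. The KI samples were the high ones and the groups did not overlap. The group means were 2.66 ± 0.39 for WT and 3.48 ± 0.26 for KI (RPKM ± SD, n = 2), a KI to WT ratio of 1.31. Its log2 fold change was 0.29 with a standard error of 0.12 and a 95% interval from -0.01 to 0.60 (adjusted p = 0.521, limma). In voom the change was 0.36 (adjusted p = 0.306, limma voom). Over the fits that omit 1 sample, the fold change went from 0.18 without WT replicate 2 to 0.40 without WT replicate 1.

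Adra2c, an alpha2 receptor known from striatum and hippocampus, was the second most abundant member. It was at 5.085 and 5.78 RPKM in WT and at 5.66 and 6.49 RPKM in KI, on 163 to 310 reads. The groups overlapped, since KI replicate 1 lay between the WT samples. Its log2 fold change was 0.14, with a 95% interval from -0.13 to 0.40 (adjusted p = 0.706, limma).

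Promoter sequence from RefSeq (GRCm38.p6) was at hand for 4 of the 6 receptors, Adra1b, Adra2a, Adra2c and Adrb1, in 5 windows of the 250 bases before an annotated start. The E-box CACGTG, which CLOCK:BMAL1 binds, was searched because phosphorylated LSD1 is known as a partner of that factor. It stood in both alpha2 windows and in no window of Adra1b or Adrb1. Of 32851 such windows over all genes, 6.02% held it. The stretches around it are given with the E-box in capitals, 80 bases before the RefSeq start in Adra2a (chr19:54045167-54045196, plus strand) and 152 bases before it in Adra2c (chr5:35278402-35278431, plus strand). GENCODE M21 starts both genes further upstream, so that both stretches lie inside the single exon it annotates.
Adra2a: gggtcgacttccCACGTGggggctgacgcc
Adra2c: caactcaggccaCACGTGacagaacctctg
The cAMP response element TGACGTCA was in 0 of the 5 windows and in 1.55% of all windows, on either strand. The GC box GGGCGG was in the windows of Adra2a and Adrb1 and in 1 of the 2 of Adra1b, and in 32.7% of all windows. A match is not evidence of binding.

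Adrb1 raises cAMP through Gs and has been linked to hippocampal plasticity and memory retrieval. It was at 4.67 and 4.46 RPKM in WT and at 5.33 and 4.81 RPKM in KI, on 98 to 191 reads. Both KI samples were above both WT samples, by a gap smaller than the one within the KI group. The log2 fold change of Adrb1 was 0.125, with a 95% interval from -0.10 to 0.35 (adjusted p = 0.674, limma).

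Adra1b, an alpha1 receptor that is prominent in thalamus and cortex, had the lowest ratio of the family. It was at 0.992 and 0.871 RPKM in WT and at 0.637 and 0.574 RPKM in KI. Reads were few, 45 and 26 for WT against 31 and 29 for KI. The WT samples were the high ones and the groups did not overlap. The group means were 0.931 ± 0.086 for WT and 0.606 ± 0.045 for KI (RPKM ± SD, n = 2), a ratio of 0.650. Its log2 fold change was -0.27 with a standard error of 0.12 and a 95% interval from -0.59 to 0.05 (adjusted p = 0.557, limma). The pseudocount weighs on a gene this low, and with a pseudocount of 0.1 the change was -0.55 (adjusted p = 0.570, limma). In voom, which uses no such pseudocount, it was -0.64 with an interval from -1.19 to -0.08 (adjusted p = 0.3401, limma voom). The counting interval of each sample alone was wide, from 0.724 to 1.33 RPKM in WT replicate 1 and from 0.384 to 0.824 RPKM in KI replicate 2.

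Adra1a, an alpha1 receptor expressed in interneurons among other cells, was at 0.622 and 0.709 RPKM in WT and at 0.564 and 0.559 RPKM in KI, on 51 to 68 reads. Both KI values lay below both WT values, and the KI samples were nearly equal. Its log2 fold change was -0.09, with a 95% interval from -0.42 to 0.23 (adjusted p = 0.848, limma). It was -0.21 with a pseudocount of 0.1, -0.23 with voom and -0.06 without WT replicate 2.

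Adra1d showed no common direction. The WT values lay between the KI values, with KI replicate 1 the highest sample and KI replicate 2 the lowest. On 751 and 617 reads, the counting intervals of the KI samples did not meet, running from 25.6 to 29.5 RPKM and from 20.05 to 23.5 RPKM. This was the only one of 12 replicate pairs, 2 for each receptor, whose counting intervals lay apart. The log2 fold change was -0.05, with a 95% interval from -0.365 to 0.26 (adjusted p = 0.919, limma), and it turned to 0.11 without KI replicate 2. Part of the exonic sequence of Adra1d is also annotated, on the other strand, as an exon of the noncoding gene Gm14285. The genes share 147 bases of the 1899 exonic bases of Adra1d. Gm14285 had reads equal to between 22.2% and 24.5% of those of Adra1d, and was also lowest in KI replicate 2, at 24.5 RPKM against 30.6 to 30.7 RPKM in the other samples. The library kit in the labels is not stated to keep the strand, so reads in the shared bases cannot be assigned to either gene.

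**Figure D3:**
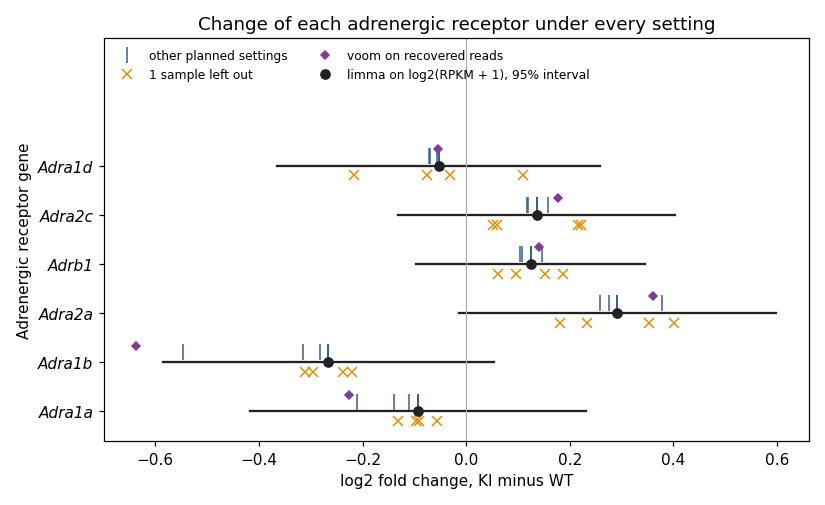
log2 fold change (KI minus WT) of each receptor: black points with 95% intervals are limma on log2(RPKM + 1), blue ticks other planned settings, orange crosses fits without 1 sample, and purple diamonds limma's voom on depth-scaled log2 reads. All 6 intervals include 0, and Adra1d alone changes sign, to 0.11 without KI replicate 2.

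The receptors lie on chromosomes other than that of the knock-in. Kdm1a is on chromosome 4 (136550540 to 136602723, GRCm38), which holds 0 of the 6. In GENCODE M21 (GRCm38), Adra2a (ENSMUSG00000033717, chromosome 19, 54044151 to 54048982) and Adra2c (ENSMUSG00000045318, chromosome 5, 35278319 to 35281763) each have 1 exon. Adrb1 (ENSMUSG00000035283, chromosome 19, 56722199 to 56733113) starts 2.67 Mb beyond the end of Adra2a. Adra1d (ENSMUSG00000027335, chromosome 2, 131545850 to 131562283) has 2 exons. Adra1a (ENSMUSG00000045875, chromosome 14, 66635251 to 66771168) and Adra1b (ENSMUSG00000050541, chromosome 11, 43774606 to 43901210) have 5 merged exons each. Apart from Adra1d, the exons of these genes overlap those of no other annotated gene.

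Other family members were rarely seen. Adra2b rested on 2 to 12 reads per sample and stayed at or below 0.208 RPKM. Adrb3, the beta receptor best known from fat, rested on 4 to 27 reads, with 0.309 and 0.157 RPKM in WT and 0.649 and 0.393 RPKM in KI. Neither reached the filter of 0.5 RPKM in 2 samples, and neither was tested.

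The genes around the receptors were read from 5 lists, 61 genes in all, of which 57 were tested. In limma 0 of the 57 were called. At an unadjusted limma p under 0.05 there were 7 of the 57, against 9.62% of all genes tested. All 7 were higher in KI, as were 1161 of the 1774 genes with such a p. The KI samples were the 2 highest for 24 of the 57 and the 2 lowest for 10, against 24.0% and 18.1% of all genes tested.

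Hippocampal tissue holds noradrenergic axons and not their cell bodies, and Th and Dbh, enzymes that make the transmitter, were near 0. Ddc, an enzyme of the same synthesis, was at 0.886 and 0.914 RPKM in WT and at 1.22 and 1.005 RPKM in KI. Ddc was named after its values were seen, and its adjusted p was 0.726 (limma). Th, the rate-limiting enzyme of catecholamine synthesis, had 9 and 5 reads in the WT samples, 1 and 2 in the KI samples, and stayed at or below 0.284 RPKM. Dbh, which turns dopamine into noradrenaline, had 5 to 9 reads per sample. The 3 locus coeruleus markers listed, Th, Dbh and Phox2a, summed to 0.505 and 0.605 RPKM in WT and to 0.159 and 0.364 RPKM in KI. Slc6a2, the noradrenaline transporter, was not analysed here. Slc18a2, the vesicular monoamine transporter, was at 2.235 and 1.82 RPKM in WT and at 3.29 and 2.78 RPKM in KI. Its log2 fold change of 0.42 (adjusted p = 0.478, limma) was the largest of the synthesis and breakdown list. Maob, which degrades monoamines, was at 8.205 and 7.07 RPKM in WT and at 7.93 and 9.38 RPKM in KI, and the groups overlapped (adjusted p = 0.689, limma).

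Among the G protein alpha subunits, 0 of 8 tested passed an unadjusted limma p of 0.05, against 9.62% of all genes tested. Their log2 fold changes ran from -0.13 to 0.09. Gnaq, the Gq subunit that alpha1 receptors use, was at 52.5 and 48.5 RPKM in WT and at 45.7 and 46.3 RPKM in KI (adjusted p = 0.548, limma). Gnas, the Gs subunit that Adrb1 uses, was at 92.8 and 95.1 RPKM in WT and at 99.6 and 100.4 RPKM in KI (adjusted p = 0.572, limma). In the phospholipase C arm, 0 of 10 passed an unadjusted limma p of 0.05. In lists this short, a count of 0 cannot be told apart from the share of 9.62%. There Itpr1, the IP3 receptor that releases stored calcium, had a log2 fold change of -0.12, with 54.1 and 51.8 RPKM in WT and 49.7 and 47.9 RPKM in KI. Plcb2, a phospholipase C beta, had one of 0.25 at under 1 RPKM in every sample.

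The cAMP arm held 5 of the 7 genes at an unadjusted limma p under 0.05, among 20 tested, where 9.62% of all genes had such a p (6.3% with KI higher). The median log2 fold change of the list was 0.04. Adcy6, an adenylyl cyclase that Gs activates and Gi inhibits, was at 11.55 and 11.4 RPKM in WT and at 14.4 and 13.4 RPKM in KI. The groups did not overlap, and its log2 fold change was 0.26 with a standard error of 0.06 (adjusted p = 0.414, limma). It was the 1 gene that voom called of the 57 tested in the 5 lists (adjusted p = 0.0675, limma voom). Over all genes voom called 1.5%. Pde4a, a phosphodiesterase that breaks down cAMP, was at 16.6 and 17.7 RPKM in WT and at 20.25 and 20.1 RPKM in KI (adjusted p = 0.435, limma). The other 3, named after their values were seen, were Adcy3, Adcy5 and Adcy7, with log2 fold changes of 0.17, 0.21 and 0.35. Both KI samples were the highest for each of them, as for 24.0% of all genes tested. In the whole list the KI samples were the 2 highest for 8 of the 20 genes. They were the 2 lowest for 4, as for 18.1% of all genes tested. Adcy1 and Adcy9, also named after their values were seen, were among those 4, with log2 fold changes of -0.144 and -0.15. Adcy1 was at 105.6 and 106.1 RPKM in WT and at 89.2 and 102.8 RPKM in KI.

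In the desensitisation list, Grk6, a kinase that phosphorylates occupied receptors, was at 19.0 and 20.3 RPKM in WT and at 21.5 and 22.1 RPKM in KI (adjusted p = 0.522, limma). Rgs14, a regulator of Gi signalling in CA2 neurons, was at 42.1 and 42.5 RPKM in WT and at 46.5 and 45.6 RPKM in KI (adjusted p = 0.511, limma).

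**Figure D4:**
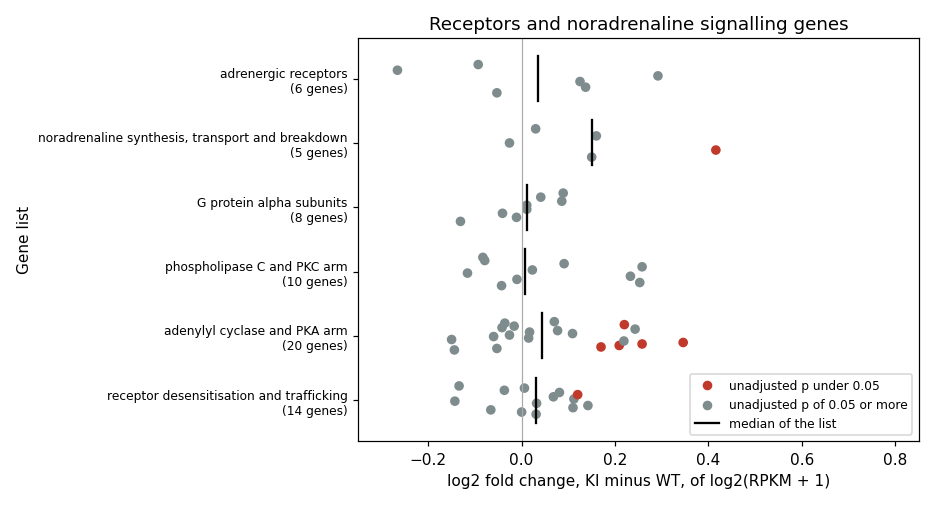
log2 fold change (KI minus WT, limma on log2(RPKM + 1)) of the 6 receptors and of the tested genes of 5 noradrenaline signalling lists, with a bar at each list's median. Red points had an unadjusted p under 0.05: none of the receptors, 1 gene of the synthesis list, 5 of the cAMP list and 1 of the desensitisation list. Over all genes tested 9.62% had such a p.

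Receptors of this family differ between brain regions and cell types, and markers of other regions and cells were summed in each sample (the plot of marker lists). Thalamus markers summed to 19.9 and 19.7 RPKM in WT and to 25.7 and 20.4 RPKM in KI, with 1 of the 6 genes above and 2 below in both KI samples. Striatum markers summed to 26.9 and 26.2 RPKM in WT and to 29.5 and 28.9 RPKM in KI, with 3 of 6 genes above and 2 below in both KI samples. Neocortex markers summed to 39.4 and 42.0 RPKM in WT and to 47.3 and 46.1 RPKM in KI, with 5 of 6 above and 0 below. The astrocyte sum was 433 and 422 RPKM in WT and 450.4 and 463 RPKM in KI, with 3 of 5 genes above and 0 below. All 4 of these sums were higher in both KI samples. Of the receptors, Adra2a and Adrb1 were higher in both KI samples, and Adra1a and Adra1b were lower. The interneuron sum was lower in both KI samples, at 409.8 and 416 RPKM in WT and 379.8 and 374 RPKM in KI. Of its 6 genes, 2 were above and 2 below in both KI samples. The sums for hippocampal neurons, microglia, oligodendrocytes, endothelium and mural cells, and choroid plexus overlapped between the groups. Over all genes tested, 24.0% were above and 18.1% below in both KI samples. In all marker lists 0 genes were called by limma. The part of cell or tissue makeup in the receptor values was not tested.

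**Figure D5:**
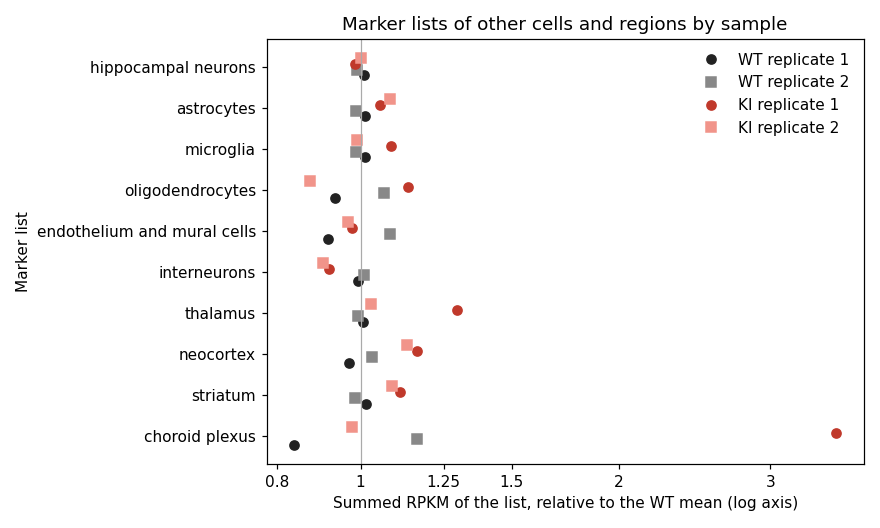
Summed RPKM of each marker list in the 4 samples, relative to the mean of the WT samples (log axis). KI replicate 1 stands out for choroid plexus, at 60.6 RPKM against 14.1 to 19.7 RPKM, and the hippocampal neuron list lies between 268 and 274 RPKM in every sample.

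With a pseudocount of 1, all 4 samples and no rescaling, Adra2a had the largest fold change of the receptors in limma, 0.29 against -0.27 for Adra1b. The order turned with a pseudocount of 0.1 (0.38 against -0.55), quantile normalization (0.26 against -0.315), median scaling (0.276 against -0.283), voom (0.36 against -0.64) and without WT replicate 2 or KI replicate 2. The genes whose pattern over the 4 samples was nearest to Adra2a were sought among 16081 genes with a mean of at least 1 RPKM. The nearest was Mettl7a1, at 15.4 and 13.35 RPKM in WT and at 17.0 and 18.4 RPKM in KI, a Euclidean distance of 0.020 between centred log2(RPKM + 1) values. Gng11, a G protein gamma subunit, followed at 0.030, and Gm15344 at 0.030. With 4 samples such a likeness is common, and 847 genes lay within a distance of 0.2.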

How the data were processed

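The authors aligned the read pairs to mm10 with GSNAP, kept pairs that mapped uniquely and properly, and deposited RPKM on genes of Ensembl release 74, 1 file per sample. The counting tool is not given in the sources used here. The deposited values are RPKM and not counts, and the main test was planned on them in place of edgeR, which the authors used. It was limma (version 3.58.1, R 4.3.3, mean-variance trend, Benjamini-Hochberg) on log2(RPKM + 1). Whole reads could be recovered, and a test on them, voom, was added after the data were seen. A gene absent from a file was set to 0, and genes reaching 0.5 RPKM in 2 or more samples were tested. Fold changes on this scale understate those of low genes. Mapped reads per sample were found from the commonest value of 1 read with GENCODE M21 exon lengths. With these lengths 15468 genes gave whole reads (within 0.0001), and 26327 of 26328 did when the length was fitted. A read may stand for a pair. Intervals of reads cover counting error only. Replicates of a group differed by more than counting noise (chi-square per degree of freedom 1.77 in WT and 3.34 in KI). The fit was tested on simulated data, where it called few of the genes changed 1.5-fold. Alternatives were the pseudocount, the filters, a replicate block, the trend, 2 rescalings, each sample left out, 1.5-fold, and voom. The receptors, lists and markers were chosen with earlier results of these data known. Named genes were the 6 receptors, Kdm1a, and of each signalling list the called genes (up to 5) and the 2 of smallest unadjusted p. The 3 genes of nearest pattern to the receptor of largest change were named too. Python 3.11.15 with pandas 2.3.3, numpy 2.4.6, scipy 1.17.1 and matplotlib 3.10.9 served for the rest.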

Additional observations from a re-analysis of the deposited data

How the results depend on the processing

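No receptor was called under any of the 12 alternative fits. The 1.5-fold limit was a stricter rule on the main fit, which called 0 genes, so it could only return 0. Of the 72 receptor fold changes under the alternative fits, 71 kept their sign. The exception was Adra1d, whose log2 fold change became 0.11 without KI replicate 2 and -0.216 without KI replicate 1. The count over all genes was 0 in the main comparison, 1 with at least 10 reads in every sample, 20 without the mean-variance trend and 277 with voom, which was added after the data were seen; the cause was not tested. For the signalling lists it was 1 with voom. With 1 sample left out, each of these counts stayed at 0. With the replicate block the counts were also 0. Same-numbered samples had deviations with a Pearson correlation of -0.025 over the 18436 genes, so the numbers were not taken to pair the samples. The change of Adra1b was -0.55 with a pseudocount of 0.1 and -0.64 with voom, against -0.27, and those of Adra2c and Adrb1 went from 0.05 to 0.22 and from 0.06 to 0.19 over all alternatives. Adra1b rests on 26 to 45 reads per sample, and with 2 samples per group differences of the size seen in the receptors could not be told from replicate spread.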
